A study of Homo sapiens with 6 samples.

Results

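The genes described here encode peptides that set vessel tone, their receptors, and the peptidases that make or destroy them. They were chosen by name as a list of 10 symbols from the endothelin, natriuretic peptide and adrenomedullin systems, and matched to the symbol part of each row of a count table of 18544 genes. A row was found for 8 of them, EDN1, ECE1, MME, NPR2, NPR3, ADM, CALCRL and RAMP2, and all 8 passed the filter on low counts that left 18482 genes for testing. NPR1 and ACE were not analysed here. The list was drawn up with earlier results of the same comparison known, in which NPR3 stood among the largest rises and MME among the largest falls. Differences between the groups are therefore given for these 8 genes as a description, and passing the threshold is not independent evidence for any of them.

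Poly-A RNA had been sequenced from HMEC-1, an immortalised line of human dermal microvascular endothelial cells, grown in MCDB131 medium at 5.5 mM glucose. Both groups carried a lentiviral shRNA, which was directed at SETD7 (also written Set7), a lysine methyltransferase of histone H3 and other proteins, in Set7KD (n = 3) and was non-targeting in NTC (n = 3). The series calls the libraries biological triplicates, but whether they came from separate transductions, and how many hairpins were used, is left unsaid by the labels; the spread between libraries may be partly technical. The question put by the design is what loss of SETD7 does to the transcriptome.

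Endothelin 1 is made by endothelial cells as a long precursor, cut by the endothelin-converting enzyme ECE1, and constricts the smooth muscle beneath. Natriuretic peptides act through the receptors NPR1 and NPR2, which make cyclic GMP, while NPR3 takes the peptides up for degradation and the membrane peptidase neprilysin, the product of MME, cleaves them. Adrenomedullin is a dilator secreted by endothelial cells that signals back to them through CALCRL. This receptor binds it together with a partner protein such as RAMP2.

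Depth was 16385878 to 16953331 gene counts per library, and 1 count equalled 0.0585 to 0.0618 CPM (counts scaled to library size after TMM normalization), the level unit used below. SETD7 itself had 180.5, 178.4 and 176.1 CPM in the NTC libraries and 27.8, 43.8 and 26.7 CPM in the Set7KD libraries. Every knockdown library lay below every control, with a log2 fold change of -2.44 (standard error, SE, 0.21) and an edgeR quasi-likelihood adjusted p of 0.000927. Of 12 endothelial markers 10 had a row, among them TIE1, CDH5, TEK and VWF but not PECAM1 or CLDN5. Their summed level was 516 to 660 CPM in NTC and 412 to 451 CPM in Set7KD. VWF, the gene for von Willebrand factor, was low in both groups, at 9.70 ± 2.25 and 10.1 ± 0.65 CPM (SD, n = 3). As the RNA is from whole cultures, fewer cells of a type and less RNA per cell cannot be told apart.

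The knockdown libraries held far more NPR3, far less MME, and somewhat less ADM and ECE1, while NPR2 had nearly the same level in both groups. By the edgeR quasi-likelihood fit over all genes (Benjamini-Hochberg adjusted p under 0.05), 1 of the 8 genes was higher and 3 were lower in Set7KD. Across all genes tested, 17.6% were called higher and 18.6% lower. Libraries of the 2 groups were fully apart for 4 of the 8, the same 4 that were called, and for 47.4% of all genes. NPR3 and MME, 2 of the 8, were called with a log2 fold change of at least 1 in either direction, as were 3.2% of all genes. Since the list was drawn up with this comparison known, nothing is read from these shares. The median log2 fold change of the 8 was -0.07, beside -0.01 over all genes tested.

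**Figure D1:**
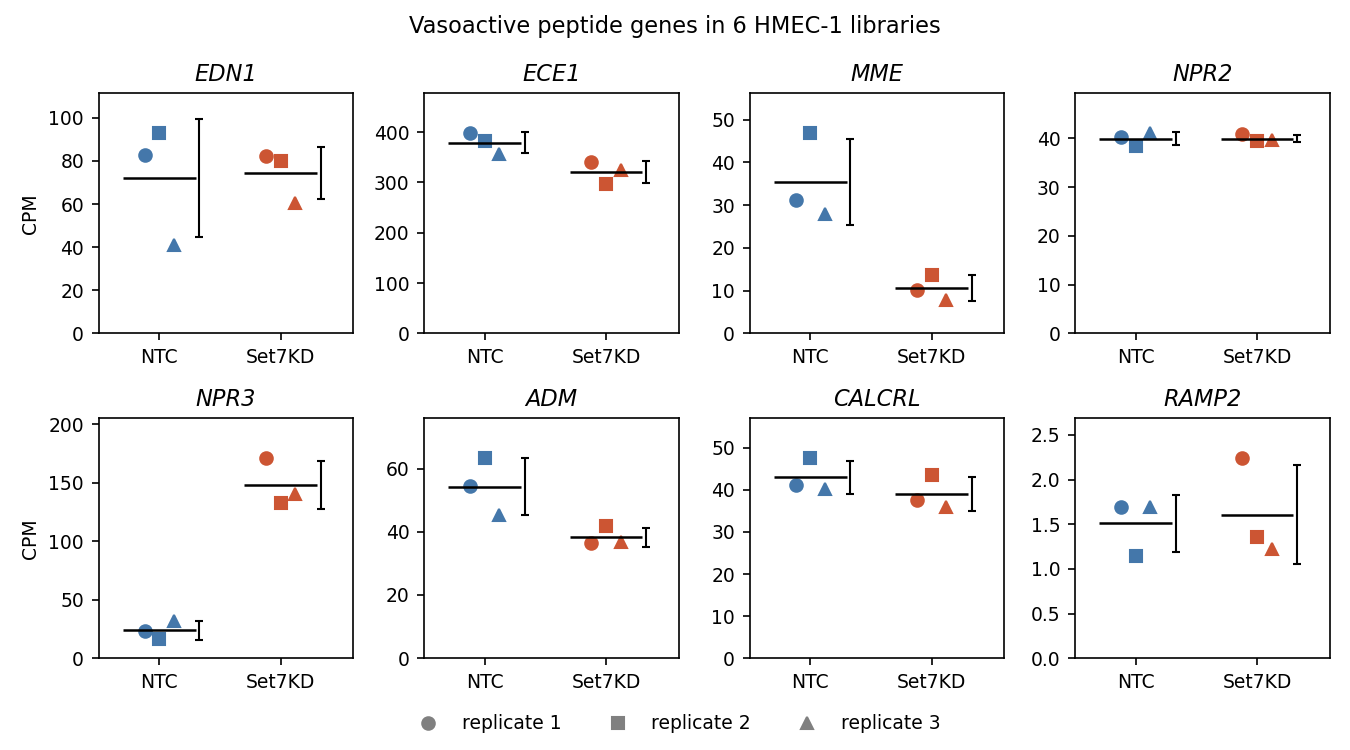
CPM (y axis, linear, from 0) of the 8 genes in the 3 NTC and 3 Set7KD libraries. Symbols mark replicate numbers, the horizontal line is the group mean and the bracket its SD. NPR3 lies at 16.1 to 32.1 CPM in NTC and at 132.9 to 170.9 CPM in Set7KD, and the replicate 3 libraries have the lowest EDN1 level of their group.

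Before the values, 2 stretches of promoter are shown because they belong to the members with the widest and the narrowest spread among the control libraries, EDN1 and NPR2. They are the 250 bases before an annotated transcript start, from RefSeq on GRCh38.p14 (the counts were made on hg19), written 5′ to 3′ on the plus strand. EDN1 is at chr6:12290111-12290360 and NPR2 at chr9:35791341-35791590. Capitals mark matches, on either strand, to TATAAA (the TATA box), GGGCGG (the GC box), AGATAA (the motif of GATA factors), TGACTCA (the AP-1 motif) or the CArG box; GC boxes may overlap each other.
EDN1: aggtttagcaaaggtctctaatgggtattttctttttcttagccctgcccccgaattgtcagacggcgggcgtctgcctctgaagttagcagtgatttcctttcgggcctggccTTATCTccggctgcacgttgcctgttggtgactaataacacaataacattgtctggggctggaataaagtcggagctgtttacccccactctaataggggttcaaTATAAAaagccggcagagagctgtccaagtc
NPR2: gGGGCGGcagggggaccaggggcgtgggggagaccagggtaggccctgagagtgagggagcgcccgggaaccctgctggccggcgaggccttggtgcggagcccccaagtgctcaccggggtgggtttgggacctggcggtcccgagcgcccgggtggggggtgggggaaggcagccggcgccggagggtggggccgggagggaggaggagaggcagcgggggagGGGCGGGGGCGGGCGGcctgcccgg

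The EDN1 window had a TATA box that began 31 bases before the start and a GATA motif, on the minus strand, whose match began 136 bases before it, and 49.2% of its bases were G or C. The NPR2 window had no TATA box, 4 GC boxes and 79.2% G or C. Among 34943 windows of the same length, 10.8% held TATAAA, 9.19% AGATAA, 42.5% GGGCGG, 4.22% TGACTCA and 1.16% a CArG box. RefSeq gave 16 such windows for 7 of the 8 genes (RAMP2 had none), and none of the 16 held TGACTCA or a CArG box. The EDN1 window shown was not its only one. Its others held no TATA box or GATA motif, and the one at chr6:12287769-12288018 held 1 GC box. Among the other members with a window, only ADM held a TATA box, beside 1 GC box. All 250 bases of that ADM window lay in annotated exons of ADM. NPR3 and MME held no TATA box, with coefficients of variation of 33.6 and 28.5% in NTC, against 16.6% for ADM. Whether motifs go with spread was not tested. The motifs are matches of letters and say nothing of whether a factor binds.

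Per kilobase of exon, the converting enzyme ECE1 and the endothelin ligand EDN1 had the highest mean levels of the 8 in both groups. EDN1 had 82.6, 92.7 and 41.1 CPM in NTC replicates 1, 2 and 3, and 82.3, 80.2 and 60.6 CPM in Set7KD. Replicate 3 was the lowest library of both groups and the groups overlapped. The coefficient of variation of EDN1 in NTC was 37.9%, and 99.7% of the 10808 genes with at least 10 CPM in both groups had a smaller one. EDN1 did not pass the threshold, with a log2 fold change of 0.04 (SE 0.36) and a 95% interval of -0.94 to 1.03. Changes of either sign within that interval are compatible with this fit. Without NTC replicate 3 the log2 fold change was -0.24 (SE 0.13), and with the replicate number as a block it was 0.09 (SE 0.18).

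ECE1 had 397, 382 and 356 CPM in the NTC libraries and 340, 297 and 324 CPM in the Set7KD libraries. All knockdown libraries lay below all controls, and the difference was small, a log2 fold change of -0.24 (SE 0.06) that passed the threshold. It did not pass against a minimum fold of 1.2, nor without both replicate 1 libraries (-0.25, SE 0.09). With the replicate block the log2 fold change was -0.24 (SE 0.05) and passed. The enzyme's transcript stayed at 77.8 to 91.0% of the NTC library with the same replicate number.

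Of the natriuretic peptide genes, NPR3 differed most. Its level was 23.6, 16.1 and 32.1 CPM in NTC and 170.9, 132.9 and 139.9 CPM in Set7KD. The lowest knockdown library stood more than 100 CPM above the highest control. The log2 fold change was 2.63 (SE 0.28), a fold of 6.17, and passed the threshold. NPR3 also varied within NTC, with a coefficient of variation of 33.6%. In counts, the controls held 403, 267 and 549 reads of NPR3 and the knockdown libraries 2824, 2150 and 2284. Without both replicate 1 libraries the log2 fold change was 2.50 (SE 0.42) and no longer passed. With the replicate block it was 2.64 (SE 0.25) and passed.

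NPR2, the receptor of C-type natriuretic peptide that makes cyclic GMP, had 40.4, 38.4 and 41.0 CPM in the NTC libraries and 40.8, 39.4 and 39.7 CPM in the Set7KD libraries. The 6 libraries lay within 3 CPM of each other. The log2 fold change was 0.00 (SE 0.06), with a 95% interval of -0.14 to 0.14. Because both genes are read in the same library, their ratio does not depend on the scaling between libraries. Per kilobase of annotated exon, the NPR3 level was 0.229, 0.164 and 0.307 of the NPR2 level in NTC, and 1.64, 1.32 and 1.38 times that level in Set7KD. The clearance receptor transcript was thus the lower of this pair in every control library and the higher in every knockdown library.

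MME had 31.2, 46.8 and 28.0 CPM in the NTC libraries and 10.2, 13.7 and 7.72 CPM in the Set7KD libraries. The groups did not overlap, and replicate 2 was the highest library in both. The log2 fold change was -1.74 (SE 0.31), which is 3.35-fold lower, and passed the threshold. Within replicate numbers the knockdown library held 32.5, 29.3 and 27.6% of the NTC level, and with the replicate block the SE fell to 0.08 around the same log2 fold change. Without Set7KD replicate 1 the log2 fold change was -1.71 (SE 0.41) and no longer passed; without both replicate 1 libraries it was -1.80 (SE 0.47) and did not pass.

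Adrenomedullin was also lower. ADM had 54.4, 63.3 and 45.2 CPM in the NTC libraries and 36.4, 41.8 and 36.7 CPM in the Set7KD libraries. The highest knockdown library lay just below the lowest control. The log2 fold change was -0.50 (SE 0.11) and passed the threshold, but not against a minimum fold of 1.2, nor without both replicate 1 libraries (-0.47, SE 0.16). With the replicate block it was -0.50 (SE 0.07) and passed.

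The receptor chains did not pass. CALCRL, the chain that carries the signal, had 41.2, 47.5 and 40.1 CPM in the NTC libraries and 37.6, 43.5 and 36.0 CPM in the Set7KD libraries. The groups overlapped, although within each replicate number the knockdown library was the lower, at 89.6 to 91.5% of its control. The log2 fold change was -0.14 (SE 0.08), with a 95% interval of -0.32 to 0.04. Without Set7KD replicate 2, in a fit that kept NTC replicate 2, it was -0.22 (SE 0.08) and passed the threshold. With the replicate number as a block it was -0.14 (SE 0.06) and did not pass.

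RAMP2, a partner that gives CALCRL a preference for adrenomedullin, was close to the limit of what these libraries resolve. It had 29, 19 and 29 counts in NTC and 37, 22 and 20 counts in Set7KD, or 1.14 to 1.70 and 1.22 to 2.24 CPM. The groups overlapped, and the log2 fold change was 0.09 (SE 0.27), with a 95% interval of -0.49 to 0.67.

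**Figure D2:**
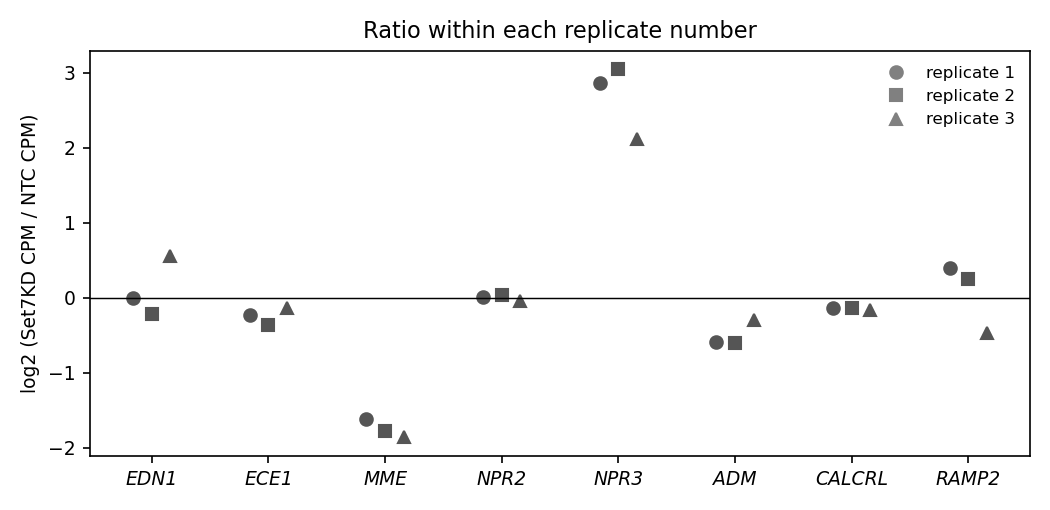
Log2 ratio of the Set7KD to the NTC library with the same replicate number (y axis) for each gene, one symbol per number and a line at 0. The 3 ratios are 2.12 to 3.05 for NPR3 and -1.86 to -1.62 for MME, while those of EDN1 and RAMP2 lie on both sides of 0.

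Levels of different genes were compared per kilobase of the exons annotated in GENCODE 29, since long transcripts give more reads. In NTC the order was ECE1 at 51.6 ± 2.84 CPM per kb, EDN1 at 35.5 ± 13.5, ADM at 20.0 ± 3.32, NPR2 at 10.3 ± 0.35, CALCRL at 6.99 ± 0.65, MME at 3.67 ± 1.05, NPR3 at 2.42 ± 0.81 and RAMP2 at 1.32 ± 0.28 CPM per kb (SD, n = 3). The libraries of EDN1 and ADM overlapped, as did those of MME and NPR3; the other neighbours did not. In Set7KD the lowest ECE1 and the highest EDN1 library both stood at 40.5 CPM per kb. NPR3 was the third of the 8, at 15.0 ± 2.05 CPM per kb, and overlapped ADM at 14.1 ± 1.11. MME was the last, at 1.10 ± 0.31, and overlapped RAMP2 at 1.40 ± 0.48. Taking the longest annotated transcript in place of all exons, a choice made after seeing the data, placed ADM (20.3) just above NPR3 (20.1) in Set7KD with RAMP2 and MME at 1.87 each, and left the order in NTC as it was. The CALCRL level was 4.42 to 7.76 times that of RAMP2 in NTC and 3.14 to 5.97 times in Set7KD.

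**Figure D3:**
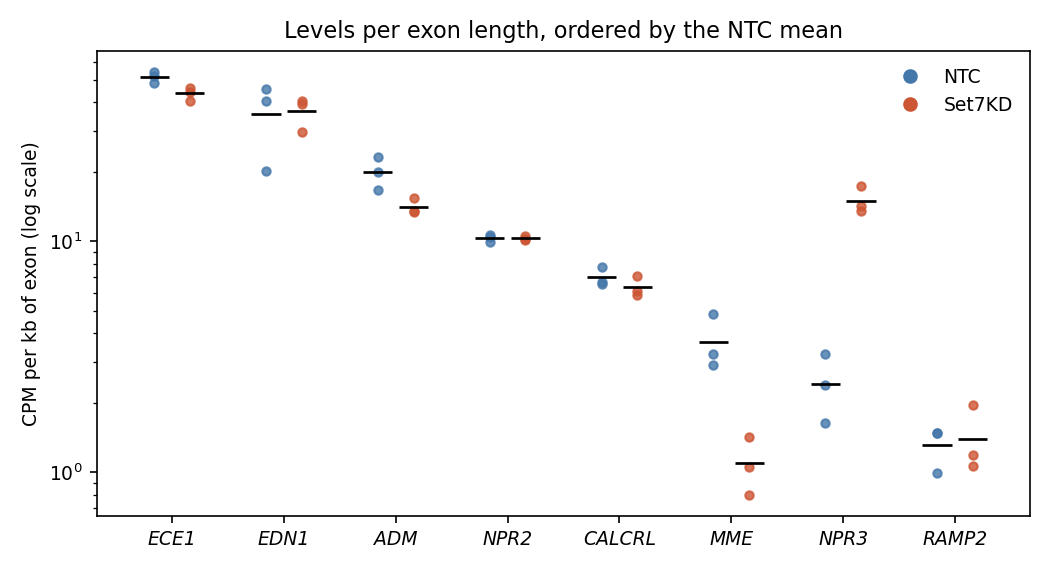
CPM per kilobase of annotated exon (y axis, log scale) in each library for the 8 genes, ordered by the NTC mean; horizontal lines are group means. NPR3 moves from the seventh place in NTC to the third in Set7KD, and MME from the sixth to the last.

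Some rows of the table overlap these genes on the opposite strand, and the sources used here do not say whether counting used strand. MME-AS1, antisense to MME, had 28, 44 and 26 counts in NTC and 7, 5 and 4 in Set7KD, a log2 fold change of -2.54 (SE 0.36; edgeR adjusted p = 5.84e-05). It was thus lower in the same libraries as MME, and reads of the pair cannot be told apart without strand. AC007319.1, antisense to CALCRL, had 18.6 ± 1.53 CPM in NTC against 15.5 ± 0.35 CPM in Set7KD (edgeR adjusted p = 0.033), a call lost by DESeq2 (adjusted p = 0.0918), against a fold of 1.2, and without replicate 1 or 3 of either group. SPAG8, which overlaps NPR2, had 6.44 ± 0.70 and 6.37 ± 0.91 CPM. RAMP2-AS1, antisense to RAMP2, had 12, 10 and 22 counts in NTC and 9, 8 and 15 in Set7KD, and was not called.

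The genes most like NPR3 and MME across the 6 libraries were sought among 13092 other genes averaging 5 CPM or more. The measure was the root mean square difference of log2 of CPM plus 0.5, centred on each gene's mean. For NPR3 the closest was AC026703.1, with a difference of 0.03. Its counts were 43.5 to 46.5% of those of NPR3 in every library. The annotation used here did not hold its identifier, so that reads shared between the 2 rows cannot be told apart. The next were CNN1, the smooth muscle calponin, at 0.18, and COL3A1, a fibrillar collagen gene, at 0.33. CNN1 had 22, 7 and 21 counts in NTC, where the added 0.5 CPM shrinks its log2 differences. COL3A1 did not follow NPR3 within NTC, at 12.2, 13.7 and 12.5 CPM in replicates 1, 2 and 3. For MME they were C10orf10, at 0.11, IP6K3, an inositol phosphate kinase gene, at 0.12, and N4BP2L1, at 0.13. C10orf10 fell from 12.5 ± 3.59 to 3.88 ± 0.89 CPM and had its highest level in replicate 2 of both groups. It was picked for its likeness to MME over these libraries, so sharing these traits with MME is no further evidence.

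Several lists of markers of other cell types also differed between the groups. For the counts of calls below, the shares over all genes tested were 17.6% higher and 18.6% lower. Fibroblast markers, 5 of 6 with a row, summed to 1445 to 1989 CPM in NTC and 3113 to 4053 CPM in Set7KD, and 4 of the 5 were called higher by edgeR. COL1A1 made up most of the sum, at 1555 ± 270 CPM in NTC and 2861 ± 395 CPM in Set7KD. COL1A2 came next, at 149 ± 5.59 and 733 ± 98.8 CPM. PDGFRA was low, at 1.63 ± 0.06 and 2.92 ± 0.53 CPM. LUM, which was not called, stood at 1.56 ± 0.13 and 1.98 ± 0.16 CPM. Smooth muscle and pericyte markers, 8 of 9 with a row, summed to 385 to 434 CPM and 753 to 1043 CPM. Of these 2 were called higher and 6 were not called, and the median log2 fold change of the 8 was 0.25. TAGLN, a smooth muscle actin-binding protein gene, made up most of the rise in the sum, from 96.3 ± 16.8 to 551 ± 116 CPM, and CNN1 rose from 0.98 ± 0.48 to 9.16 ± 1.86 CPM. Not called were ACTA2 (38.2 ± 4.58 and 43.9 ± 3.82 CPM), PDGFRB (55.2 ± 1.81 and 59.4 ± 6.40), RGS5 (4.41 ± 0.29 and 4.20 ± 0.30), CSPG4 (129.7 ± 14.2 and 160.0 ± 19.4), SMTN (73.0 ± 13.4 and 100.01 ± 16.3) and MYH11, the myosin heavy chain of smooth muscle (10.6 ± 1.58 and 9.54 ± 0.72). Lymphatic endothelial markers, 2 of 4 with a row, fell from 103 to 108 CPM in sum to 72.6 to 86.5 CPM, with both PDPN and FLT4 called lower. Leukocyte markers, 2 of 3 with a row, fell from 36.1 to 38.7 CPM to 21.5 to 28.2 CPM, with both CD68 and CD14 called lower. Epithelial markers summed to 218.7 to 261.7 CPM and 227.3 to 248.4 CPM, and 0 of the 2 tested were called. DES and DCN had no row. Among the 10 endothelial markers, TIE1, CDH5, ROBO4 and EGFL7 were lower and KDR and TEK higher. The part of these shifts in the NPR3 and MME values was not tested.

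An earlier scan of these libraries had found the words ATGAATC and TGAATCA in 3′ UTRs to go with lower fold changes across genes, so that the words are not independent of these data. In the longest 3′ UTRs of GENCODE 29 coding transcripts, 17.6% of 12866 tested genes held at least 1 of them. MME held 2 matches, ECE1 held 1, and the UTRs of EDN1, NPR2, NPR3, ADM, CALCRL and RAMP2 held none. As the words came from the fold changes of these libraries, nothing is read from their presence in genes called lower. UTR length also differs, from 230 bases in RAMP2 to 5379 in NPR3, and the 17.6% takes no account of it. The matches are shown with the words in capitals and neighbouring bases from the transcript. The second in MME is both words overlapping.
MME, from base 2899 of 3270: ctgccttcccATGAATCtgtctccca
MME, from base 2918 of 3270: ctcccagttATGAATCAgtgggcagg
ECE1, from base 1724 of 2708: gcccctgggtTGAATCAagatagtac
ADM, the third gene called lower, held no match in the 756 bases of its UTR. The hairpin sequence was not used here, and its part in the MME and ECE1 values was not tested.

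Of 88 companion symbols from the same and neighbouring peptide systems, 33 had a row. By edgeR 7 of them were higher and 8 lower in Set7KD, 45.5% together, beside 36.2% of all genes tested. With the replicate number as a block 11 were higher and 9 lower, beside 20.7 and 22.1% of all genes in that fit. The median log2 fold change of the 33 was 0.02. Among the companion symbols without a row were EDNRB, NPPA, NPPB, NPPC and RAMP3. The smallest total count of any gene row was 60 over all libraries, and why a symbol had no row was not examined.

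Endothelin genes among the companions were called throughout, 3 of 3 with a row. EDNRA, the endothelin receptor typical of smooth muscle, had 11.1, 8.43 and 8.78 CPM in the NTC libraries and 18.2, 19.3 and 20.9 CPM in the Set7KD libraries, a log2 fold change of 1.04 (SE 0.11; edgeR adjusted p = 6.66e-06). The knockdown libraries lay well above the controls. EDN2, a second endothelin ligand, fell from 1.87 ± 0.63 to 0.78 ± 0.08 CPM (edgeR adjusted p = 0.0041), on 12 to 14 counts per knockdown library, a call lost without both replicate 1 libraries (log2 fold change -0.997, SE 0.386). ECE2, a second converting enzyme, rose from 3.43 ± 0.13 to 4.71 ± 0.12 CPM (edgeR adjusted p = 0.0231), a call lost without NTC replicate 1, NTC replicate 3, Set7KD replicate 1 or Set7KD replicate 3 and without any same-numbered pair, with an adjusted p of up to 0.144. It was also lost by DESeq2 (adjusted p = 0.103) and against a fold of 1.2.

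None of the 4 natriuretic peptide companions with a row was called by edgeR, and 0 by DESeq2 or limma-voom, with 1 of them at an unadjusted edgeR p under 0.05 (range 0.0312 to 0.821). FURIN, a protease that processes many precursors, had 96.6 ± 4.85 CPM in NTC against 89.2 ± 6.05 CPM in Set7KD, and IDE, the insulin-degrading peptidase that also cleaves natriuretic peptides, 83.4 ± 4.32 and 91.7 ± 2.63 CPM. With the replicate block IDE passed, at an edgeR adjusted p of 0.0292. CORIN, which activates atrial natriuretic peptide, stayed near 1 CPM.

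Adrenomedullin companions gave 1 higher and 2 lower of 6. ADM2, the gene for a related dilator peptide, fell from 5.54 ± 0.93 to 2.34 ± 0.56 CPM, a log2 fold change of -1.24 (SE 0.19; edgeR adjusted p = 0.000146). CRCP, a CGRP receptor component and RNA polymerase III subunit, rose from 35.8 ± 2.45 to 42.7 ± 0.21 CPM (edgeR adjusted p = 0.00988), a call lost without NTC replicate 1, without both replicate 1 or both replicate 3 libraries, with an adjusted p of up to 0.149, and against a fold of 1.2. RAMP1, which gives CALCRL a preference for CGRP, was below the level set for naming and is named after its values were seen: 17, 14 and 25 counts in NTC and 7, 8 and 5 in Set7KD (edgeR adjusted p = 0.00545), a call lost without both replicate 3 libraries. PAM, the enzyme that amidates adrenomedullin, had 172 ± 7.59 and 174 ± 11.5 CPM. CXCR7, a scavenger receptor that also takes up adrenomedullin, had 1.83 ± 0.31 and 2.65 ± 0.31 CPM and passed with the replicate block (edgeR adjusted p = 0.0413).

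Of 8 angiotensin companions 3 rose and 3 fell. ANPEP, aminopeptidase N, fell from 112 ± 5.55 to 83.2 ± 2.26 CPM (edgeR adjusted p = 3.1e-05). NLN, the peptidase neurolysin, fell from 53.4 ± 3.29 to 35.8 ± 4.04 CPM and AGTRAP, which binds the angiotensin receptor, from 25.6 ± 1.80 to 16.1 ± 2.80 CPM (edgeR adjusted p of 5.61e-05 and 0.000266). PRCP, which cleaves angiotensin II, rose from 85.4 ± 1.14 to 98.4 ± 2.63 CPM and ATP6AP2, the prorenin receptor, from 128 ± 6.37 to 152 ± 2.92 CPM (edgeR adjusted p of 0.00698 and 0.00245). Both calls were lost without both replicate 1 libraries (edgeR adjusted p of 0.085 and 0.0798) and against a fold of 1.2. LNPEP, a membrane aminopeptidase, did not pass, but did with the replicate block, at an edgeR adjusted p of 0.03.

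Among the 5 kinin companions, BDKRB2, the bradykinin B2 receptor, fell from 5.80 ± 1.48 to 1.25 ± 0.58 CPM. Its 101, 120 and 73 counts in NTC stood against 15, 31 and 15 in Set7KD, a log2 fold change of -2.21 (SE 0.28; edgeR adjusted p = 8.37e-05), the lowest of the 33 companions. CPD, a carboxypeptidase, rose from 309 ± 9.32 to 338 ± 1.81 CPM (edgeR adjusted p = 0.0496), a call lost whenever any 1 library was left out, with an adjusted p of 0.0546 to 0.214, by DESeq2 (0.07), without any same-numbered pair and against a fold of 1.2. Carboxypeptidase M (CPM as a gene symbol), which trims kinins, did not pass, at levels of 78.8 ± 15.2 and 53.1 ± 13.6 in the same unit, but did with the replicate block (log2 fold change -0.58, SE 0.05; edgeR adjusted p = 7.85e-07) and by limma-voom (adjusted p = 0.0145). The apelin ligand APLN fell from 99.5 ± 26.5 to 29.1 ± 10.35 CPM, and the groups did not overlap. Its log2 fold change was -1.78 (SE 0.37, edgeR adjusted p = 0.0258). With the replicate block it was -1.79 (SE 0.07, edgeR adjusted p = 6.11e-10). The call was lost without NTC replicates 1 or 2 or Set7KD replicates 1 or 3. It was also lost without both replicate 1 or both replicate 2 libraries (edgeR adjusted p of up to 0.248) and against a fold of 1.2. None of the other 6 peptide and receptor genes was called by edgeR, and 0 by DESeq2 or limma-voom, with 1 of them at an unadjusted edgeR p under 0.05 (range 0.0492 to 0.991). With the block ADCYAP1, the gene for the dilator peptide PACAP, passed (edgeR adjusted p = 0.0211), at 1.28 ± 0.45 CPM in NTC and 2.10 ± 0.82 CPM in Set7KD.

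**Figure D4:**
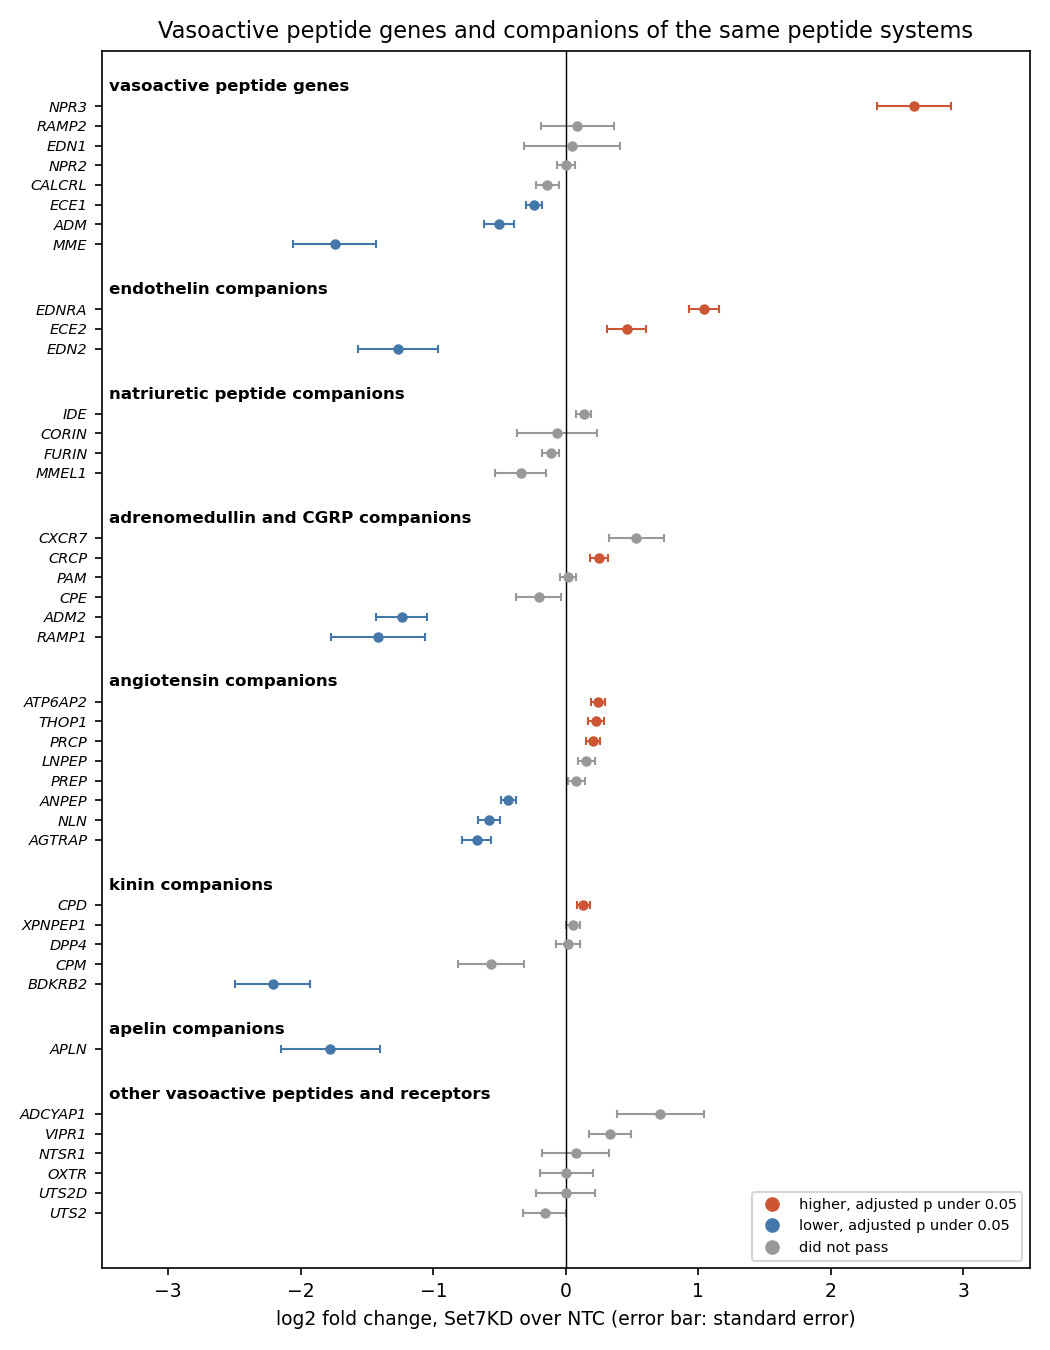
Log2 fold change of Set7KD over NTC (x axis) with its standard error for the 8 vasoactive peptide genes and 33 companions, grouped by peptide system. Red points were called higher, blue points lower and grey points neither. BDKRB2 at -2.21, APLN at -1.78, MME at -1.74 and NPR3 at 2.63 lie farthest from 0.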

How the data were processed

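Gene-level read counts of 6 HMEC-1 libraries, 3 Set7KD and 3 NTC, were used as the authors deposited them, as whole-number counts in 1 table. BWA, bedtools and hg19 are named, without versions, per the submitters' processing notes; strand and the treatment of multi-matching reads are not given there. Reads that fell outside annotated genes, 55.6 to 56.1% of each library, stand in 1 row that entered neither library sizes nor tests. Groups and replicate numbers came from the sample titles.

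The fit used edgeR 4.0.16 under R 4.3.3 (filterByExpr, then TMM, robust glmQLFit, glmQLFTest, group as the single factor), with Benjamini-Hochberg adjustment over 18482 genes and a threshold of 0.05. The code was first run on simulated counts with the same dispersion for every gene and no replicate effect. As these libraries differ in both, that run checks the code and not the fit to these genes. SE is the absolute log2 fold change over the square root of F, and 95% intervals use the fit's degrees of freedom. The members and lists were chosen with earlier results of these data known; the companion lists were written as whole families. Named were SETD7, every member, and per companion list up to the 5 called genes with the smallest p and at least 1 CPM, with partners of members that did not pass. Alternatives were RLE and upper-quartile normalization, no filter, DESeq2 1.42.0, limma-voom (limma 3.58.1), the replicate block, an adjusted p under 0.01, a fold of 1.2, a filter that every library of 1 group or the other holds 50 counts or more, and libraries left out singly or in same-numbered pairs.

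Counting noise did not account for differences within a group (chi-square per degree of freedom 2.94 to 9.77). Over 11151 genes with at least 10 CPM, deviations from group means correlated at 0.3, 0.42 and 0.34 between same-numbered libraries. The numbers were therefore taken to pair them, though the labels do not explain the numbers. The main fit and the fits with libraries left out do not use this pairing, so their SE and calls include the spread that same-numbered libraries share. Only the replicate block takes the pairing into account. Exon lengths, UTRs and overlaps came from GENCODE 29 (GRCh38), matched by Ensembl identifier, and promoters from RefSeq.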

Additional observations from a re-analysis of the deposited data

How the results depend on the processing

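Of 623 values for 35 genes, under up to 18 alternatives each, 527 kept direction and side of the threshold, 57 in 13 genes lost the call, 17 in 6 genes gained it and 22 in 6 genes that did not pass changed sign. The markers of cell types and RAMP2-AS1 were among the genes not included. Those that gained a call were CALCRL, without Set7KD replicate 2, and IDE, CXCR7, LNPEP, carboxypeptidase M and ADCYAP1, with the replicate block among others. Those that changed sign did so when libraries were left out, with log2 fold changes over all alternatives of -0.24 to 0.27 for EDN1, -0.026 to 0.040 for NPR2, -0.22 to 0.35 for RAMP2, -0.37 to 0.28 for CORIN, -0.068 to 0.10 for PAM and -0.14 to 0.084 for SPAG8. NPR3, MME, ADM and ECE1 kept their direction throughout.

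With libraries left out, singly or in pairs, the 8 genes gave 0 to 1 higher and 0 to 4 lower calls, the companions 1 to 8 higher and 6 to 10 lower, and all genes 1414 to 3214 higher and 1562 to 3303 lower. The lowest of these counts came without both replicate 1 libraries, where 0 of the 8 genes passed by edgeR. Fewer libraries enter those fits, and they do not use the pairing by replicate number. Against a fold of 1.2, 1 of the 8 genes was lower, 1 companion was higher, and 903 genes were higher and 1314 lower in all. At an adjusted p under 0.01 there were 2103 higher and 2197 lower genes. The replicate block brought the higher companions to 11, and changed the call of none of the 8 genes. RAMP2, EDN2, RAMP1, CORIN, CXCR7, ADCYAP1 and MME-AS1 had no value under the filter of 50 counts per library.

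Among the 8 genes, the 33 companions and MME-AS1, 9 had under 50 counts in every library (RAMP2, RAMP1, EDN2, CORIN, CXCR7, ADCYAP1, NTSR1, UTS2D and MME-AS1, at 4 to 47 counts), where depth limits precision.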
